A study of Mus musculus with 2 samples.

Results

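The genes described here are 39 regulators of the cell cycle, 39 of the 43346 genes quantified in mouse embryonic hindbrain. They were taken by symbol from a named list of cyclins, cyclin-dependent kinases (Cdks), Cdk inhibitors, retinoblastoma pocket proteins, E2F factors, Cdc25 phosphatases with the kinase Wee1, Trp53 with Mdm2, and the Myc family. Every symbol matched a gene identifier in both libraries. The study is 1 group of 2 total RNA-seq libraries, replicate 1 and replicate 2, each from the hindbrain of a B6NCrl embryo at 14.5 days. The hindbrain is the embryonic source of the cerebellum, pons and medulla. Each label names a single hindbrain from 1 pup, although both samples carry the same donor identifier and a sex label that pools males and females. The dates of collection differ, 1 per replicate, and the design does not separate them: the effect of date and that of the individual cannot be told apart. Each library was made from 10 ng of RNA longer than 200 nt, with added spike-in RNA. No treatment, genotype or second tissue was compared, and the comparison made below is between the 2 libraries.

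The libraries held 34929425 and 33510896 expected counts, which are the authors' estimates of reads per gene. Levels are given as the authors' TPM, a length-normalised unit of transcripts in which genes can be compared. Genes of hindbrain patterning were present, with Hoxb2 at 33.8 and 31.9 TPM and Gbx2 at 33.4 and 33.3 TPM. The 2 libraries differed by more than counting noise over all genes, with a chi-square of 12.7 per gene, and log2 TPM correlated across genes with a Pearson coefficient of 0.994, genes not being independent replicates. These are the only replicates, and nothing in the labels beyond the pup and the date tells biological spread from technical spread. All p-values below therefore compare these 2 libraries and no conditions. In bulk tissue, fewer cells of a type and less RNA per cell cannot be told apart.

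Cyclins bind and activate Cdks, and successive cyclin and Cdk pairs drive a cell from G1 through DNA replication into mitosis. D cyclins with Cdk4 or Cdk6 phosphorylate the pocket proteins, which releases E2F factors to transcribe genes of S phase, among them E cyclins that act with Cdk2. A and B cyclins with Cdk1 then take the cell into mitosis, while the INK4 and Cip/Kip inhibitors hold the kinases back. In the embryonic hindbrain, progenitors divide in the ventricular zone and the rhombic lip, and postmitotic neurons leave the cycle. Mycn and Ccnd2 are known for their part in the growth of cerebellar granule cell precursors.

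Stretches of genome upstream of 5 members, from RefSeq promoter windows on GRCm38.p6, are shown because they carry letters of the motifs listed below. A window ran from 250 bases before a start to 50 after it, and 28 members had at least 1 window, 34 in all. Members without a window were Ccna2, Ccnd1, Ccnd2, Ccne2, Cdkn1c, Rb1, E2f4, E2f5, Cdc25c, Wee1 and Myc. Motifs were searched as exact letters on both strands: the E2F core (the letters TTGGCGC, the letters TTCCCGC, the letters TTCGCGC and the letters TTGCCGC), the cell cycle genes homology region or CHR (TTTGAA), the CCAAT box (CCAAT) and the E box (CACGTG), the letters bound by Myc with Max. The stretches are printed 5′ to 3′ on the strand of the gene and stop before the first annotated exon. Capitals mark matches on either strand, of the E2F core and the CCAAT box in Ccnb1 and Cdc25a, of the E2F core, the CHR and the CCAAT box in Cdk1, of the E2F core in Mycn and of the E box in Cdk4.
Ccnb1: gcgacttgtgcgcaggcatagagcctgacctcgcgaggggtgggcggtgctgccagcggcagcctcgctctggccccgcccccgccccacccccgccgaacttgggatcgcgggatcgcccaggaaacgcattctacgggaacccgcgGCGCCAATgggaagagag
Cdk1: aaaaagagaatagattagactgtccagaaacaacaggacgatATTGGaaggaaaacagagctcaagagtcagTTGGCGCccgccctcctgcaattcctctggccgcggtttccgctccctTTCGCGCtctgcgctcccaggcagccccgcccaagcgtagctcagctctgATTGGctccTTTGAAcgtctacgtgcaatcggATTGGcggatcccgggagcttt
Cdc25a: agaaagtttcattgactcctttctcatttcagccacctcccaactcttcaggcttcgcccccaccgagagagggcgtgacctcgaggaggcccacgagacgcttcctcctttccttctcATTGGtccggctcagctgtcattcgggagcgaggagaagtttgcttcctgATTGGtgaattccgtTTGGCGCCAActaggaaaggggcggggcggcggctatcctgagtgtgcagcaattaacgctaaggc
Mycn: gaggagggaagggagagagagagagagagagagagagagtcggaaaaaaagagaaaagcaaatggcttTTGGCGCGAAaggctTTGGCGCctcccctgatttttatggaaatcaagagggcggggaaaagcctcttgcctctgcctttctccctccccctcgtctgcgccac
Cdk4: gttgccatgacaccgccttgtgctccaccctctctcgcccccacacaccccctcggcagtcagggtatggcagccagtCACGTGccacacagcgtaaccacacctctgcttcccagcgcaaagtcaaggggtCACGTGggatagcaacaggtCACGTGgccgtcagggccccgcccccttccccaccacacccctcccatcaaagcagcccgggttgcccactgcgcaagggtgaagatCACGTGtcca

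The Ccnb1 stretch lies at chr13:100786571-100786736 on the minus strand, and its E2F core and CCAAT box share letters. The Cdk1 stretch, at chr10:69352939-69353162 on the minus strand, holds 6 matches: 2 E2F cores, 1 CHR and 3 CCAAT boxes. In Cdc25a, at chr9:109875329-109875578 on the plus strand, 2 E2F core matches on opposite strands overlap in 1 run of capitals, beside 2 CCAAT boxes. The Mycn stretch at chr12:12941915-12942086, minus strand, has 3 E2F core matches, of which a pair on opposite strands overlaps. Upstream of Cdk4, at chr10:127063285-127063533 on the plus strand, stand 4 E boxes. E2F core letters were present in 12 of 34 member windows (35.3%), against 9.57% of 32851 windows in all, 12.1% of windows of protein-coding genes and 16.2% of windows of genes detected in both libraries. The CHR was in 8 member windows (23.5%, against 17.9% of all and 11.6% of those of detected genes). A CCAAT box was in 18 (52.9%, against 37.4% and 37.6%) and an E box in 5 (14.7%, against 7.15% and 9.61%). Besides the stretches printed, E2F core letters were found in windows of Cdk2, Cdkn2a, Cdkn2c, Rbl1, E2f2, E2f3, E2f7 and E2f8. E boxes were found in Cdk6, Cdkn2c, E2f3 and Trp53. A match of letters is a description of the sequence and was not tested for binding.

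The regulators were broadly present, and their levels were very unequal. With detection set at 1 TPM in both libraries, 37 of 39 members (94.9%) were detected, compared with 34.8% of all genes and 62.5% of protein-coding genes. The median level of the detected members was 24.2 TPM, and that of all detected genes was 17.2 TPM. Levels reached 10 TPM on average in 26 members and lay between 1 and 10 TPM in 11. Cdk4 alone, at 603.8 and 602.7 TPM, held 34.6% of the summed TPM of the 39 genes. E2f2, at 1.03 and 0.96 TPM, and Cdkn2a, at 0.06 and 0 TPM, were the members below the detection limit.

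**Figure D1:**
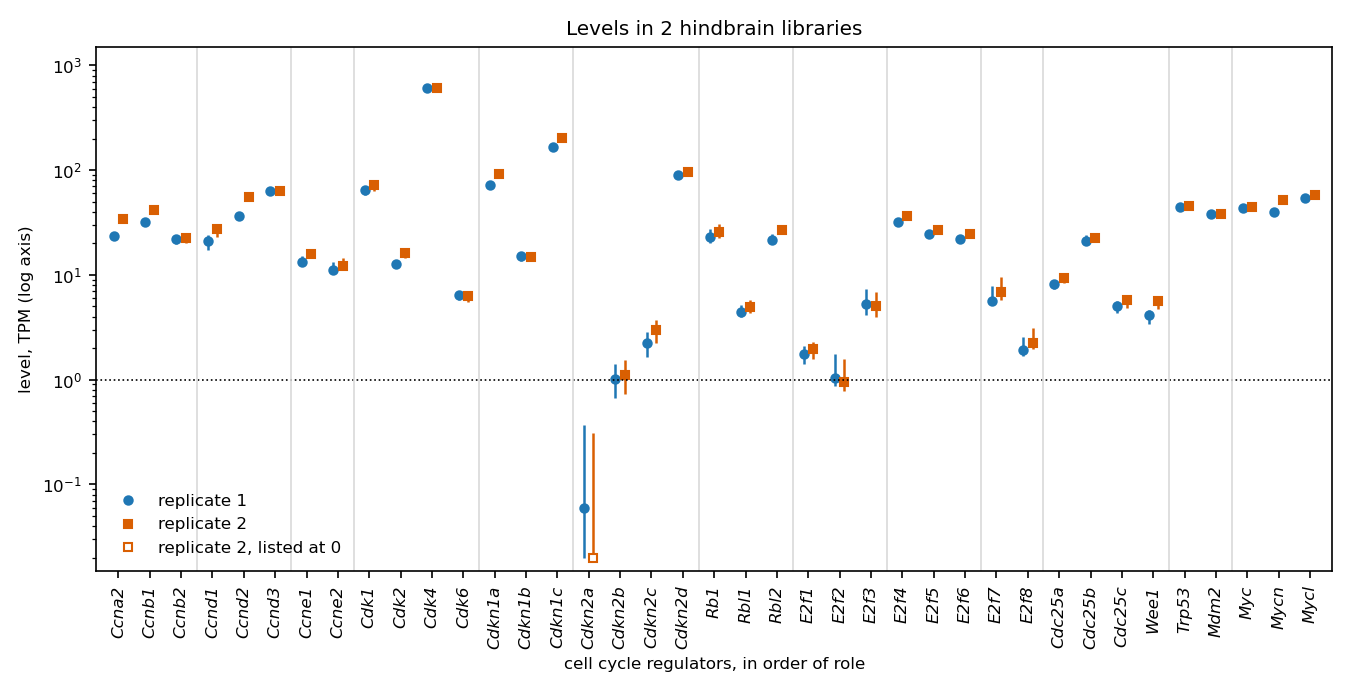
Level of each of the 39 regulators in TPM on a log axis, grouped by role, with 1 point per library and lines for the authors' credibility bounds; a level listed at 0 is an open square at the bottom of the axis, and lower bounds are clipped at the axis. Cdk4 stands at 603.2 TPM on average, Cdkn1c at 184.2 and Cdkn2d at 93.6, while E2f2 and Cdkn2a are the lowest.

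In descending order of mean level, Cdk4 was followed by Cdkn1c (184.2 ± 24.2 TPM, SD, n = 2), Cdkn2d (93.6 ± 3.85), Cdkn1a (82.6 ± 13.8), Cdk1 (68.6 ± 4.53) and Ccnd3 (63.5 ± 0.212). Of the 38 pairs of neighbours in this order, 9 had credibility bounds that stood apart in both libraries, and 29 did not. The steps lay after Cdk4, Cdkn1c, Ccnd3, Cdc25b, Ccne2, Cdc25a, Rbl1, E2f1 and E2f2. Between Ccnd3 and Cdc25b no neighbour was told apart, so the places of direct neighbours are not settled among the 16 genes from Mycl (56.0 ± 2.75 TPM) to Cdc25b (21.8 ± 0.728 TPM), although genes further apart in it can differ, as those at its ends do. The credibility bounds are the authors', and their level is not stated.

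Between the libraries, the regulators that differed were more often higher in replicate 2 than lower, by small amounts. Here and below, a gene was called where the exact two-sided binomial test on scaled counts passed an adjusted p of 0.05, with Benjamini-Hochberg adjustment over 17664 genes. Ratios are of replicate 2 over replicate 1. Intervals and floors cover counting error only, since they hold no spread between replicates. Reads carry no molecular identifiers. Of the 38 members tested, 11 were higher in replicate 2 (28.9%), where 15.7% of all genes tested were higher, and 2 were lower (5.26%), where 18.7% of all genes were lower. Among tested protein-coding genes with a mean TPM of at least 1, a set more like the members, 19.2% were higher and 18.9% lower. Calls in either direction took 34.4% of all genes, so a call by itself is common between these libraries. All 11 higher calls were under 1.5-fold in counts, from 1.14-fold to 1.46-fold. The higher members were Ccna2, Ccnb1, Ccnd1, Ccnd2, Cdk2, Cdkn1a, Cdkn1c, Cdkn2c, Rbl2, Wee1 and Mycn, and the lower were Cdk4 and Mdm2. Scaling bears on these counts: with TMM factors 15 members were higher and 0 lower, and with the spike-in total 23 were higher and 0 lower, all 11 being kept in both. Of all genes tested, 20.8% were higher and 14.7% lower with TMM factors, and 35.2% were higher and 8.46% lower with the spike-in total. Over all genes, 45.7% of the calls were higher in replicate 2 with the gene total, 58.5% with TMM and 80.6% with spike-ins. By the authors' credibility bounds, 10 members stood apart and higher in replicate 2, where 16.1% of all genes tested did so, and none stood apart and lower, where 6.5% did. Of those 10, 9 were also called by the binomial test, and the other was E2f4. The median log2 TPM ratio of the 39 members was 0.13, compared with 0.05 over all genes whose mean reached 1 TPM, and TPM was higher in replicate 2 for 32 members and lower for 7.

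**Figure D2:**
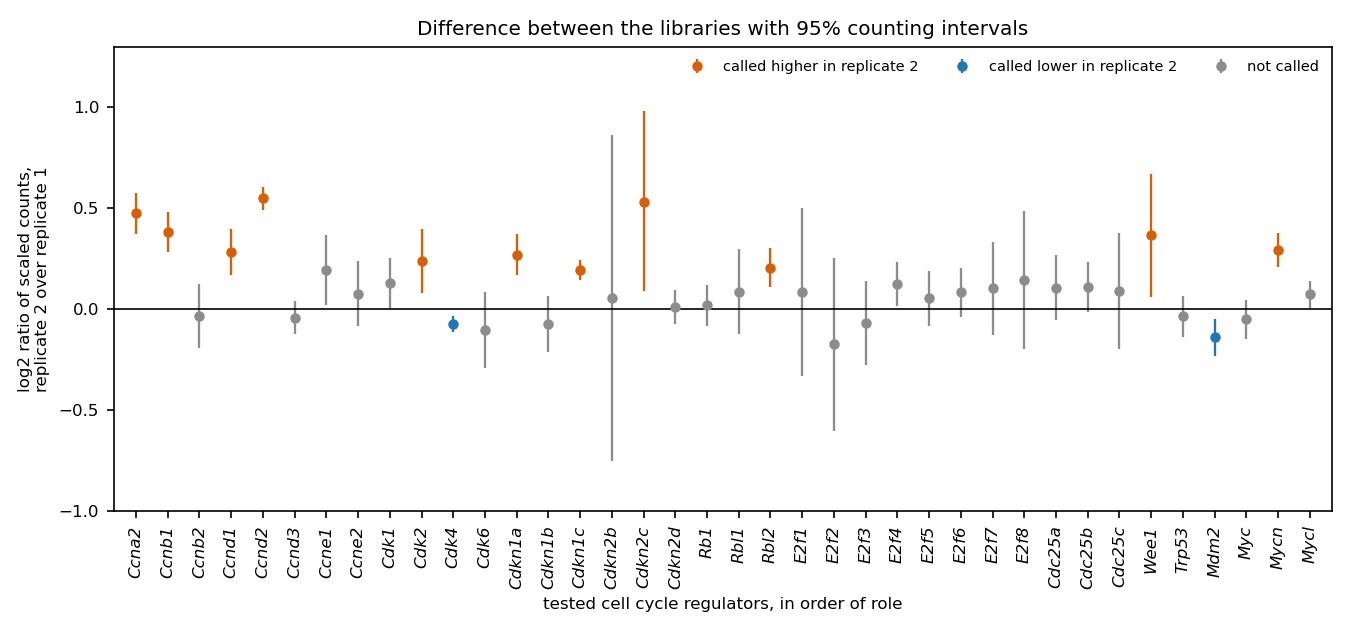
Log2 ratio of scaled expected counts, replicate 2 over replicate 1, for each regulator tested, with 95% intervals from counting error and the call marked by colour. The 11 members called higher include Ccnd2 at 0.55 and Ccna2 at 0.47, and the 2 called lower with this scaling, Cdk4 and Mdm2, lie at -0.07 and -0.14.

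Among the A and B cyclins, Ccna2 and Ccnb1 were higher in replicate 2 and Ccnb2 was not called. Ccna2, the cyclin of S phase and G2, was at 23.50 TPM in replicate 1 and 34.04 TPM in replicate 2, and the credibility bounds of the libraries did not overlap. Ccnb1, which brings Cdk1 into mitosis, was at 31.94 and 41.82 TPM, also with bounds apart. Scaled expected counts of Ccna2 differed by a log2 ratio of 0.47 (95% interval from counting, 0.37 to 0.57), with an adjusted p of 2.6e-19 in the exact binomial test, and those of Ccnb1 by 0.38 (adjusted p = 7.3e-13). Ccnb2, a second mitotic cyclin, was level at 21.90 and 22.50 TPM (log2 ratio of counts -0.03, adjusted p = 0.794). Ccnb1 exceeded Ccnb2 by a ratio of 1.46 in replicate 1 and 1.86 in replicate 2.

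The D cyclins, which couple growth signals to the start of the cycle, were all expressed, and 2 of the 3 were higher in replicate 2. Ccnd2 was at 36.38 and 56.07 TPM, with bounds apart and a log2 count ratio of 0.55 (exact binomial test, adjusted p = 3.5e-81). This was the largest TPM difference of any D cyclin. Ccnd1, at 21.14 and 27.30 TPM, was higher by 0.28 in counts (exact binomial test, adjusted p = 5.8e-06), but its credibility bounds overlapped. Ccnd3 was not called, with 63.35 and 63.65 TPM (log2 count ratio -0.04, adjusted p = 0.453). The ratio of Ccnd3 to Ccnd2 was therefore 1.74 in replicate 1 and 1.14 in replicate 2, and Ccnd2 was 1.89 ± 0.235 times Ccnd1, or 2.69 ± 0.353 times over protein-coding transcripts. E cyclins, the partners of Cdk2 at the entry into S phase, stood at lower levels than the D cyclins and were not called with this scaling. Ccne1 was called higher with TMM factors, DESeq2 size factors and the spike-in total, and Ccne2 with the spike-in total only. Ccne1 was at 13.27 and 15.89 TPM (adjusted p = 0.0737) and Ccne2 at 11.05 and 12.17 TPM (adjusted p = 0.511). Both libraries thus had Ccne1 above Ccne2 in TPM, by 1.25 ± 0.0741 times. The credibility bounds of the 2 genes overlapped in replicate 1 and were barely apart in replicate 2 (14.67 against 14.66 TPM).

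The Cdks were dominated by Cdk4, the partner of the D cyclins. Its TPM differed little, 603.77 against 602.65, while its counts, 10349 and 9456, gave a log2 ratio of -0.07 that was called lower (exact binomial test, adjusted p = 0.00163) but became 0.0502 and was called higher with the spike-in total. Cdk6, the close relative of Cdk4, was at 6.38 and 6.25 TPM and was not called (adjusted p = 0.434). Cdk4 exceeded Cdk6 by 95.5 ± 1.27 times. Cdk1, the mitotic kinase, was at 65.35 and 71.76 TPM and was not called with this scaling (log2 count ratio 0.13, adjusted p = 0.101). Cdk2, at 12.84 and 16.09 TPM, was higher by 0.24 in counts with bounds apart (exact binomial test, adjusted p = 0.0108).

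Much of the TPM of Cdk4 and Cdk1, and a smaller part of their counts, lay in transcripts that GENCODE does not annotate as protein coding. For Cdk4, at chr10 on the plus strand, protein-coding transcripts held 33.0% of the gene's TPM in replicate 1 and 35.0% in replicate 2. They held 50.6% and 52.5% of its expected counts. Cdk4-209, a short retained-intron transcript, stood at 242.8 and 228.2 TPM. It took 40.2% and 37.9% of the gene's TPM but 18.5% and 17.4% of its expected counts, its effective length being 369 bases against 1954 for the full-length Cdk4-201. Cdk4-201 was at 62.6 and 62.5 TPM, and Cdk4-205, also protein coding, was at 108.4 and 124.7 TPM. Summed over protein-coding transcripts, Cdk4 exceeded Cdk6 by 32.5 ± 1.82 times rather than 95.5 times. In Cdk1, protein-coding transcripts held 46.8% and 51.5% of TPM but 76.3% and 79.3% of expected counts. Cdk1-202 was at 29.6 and 36.1 TPM with bounds apart. The retained-intron transcripts Cdk1-203 (16.9 and 17.9 TPM) and Cdk1-204 (17.7 and 16.4 TPM) overlapped in their bounds. Coding transcripts of Cdk1 exceeded those of Cdk2 by 2.34 ± 0.0574 times, compared with 4.77 ± 0.445 times for whole genes.

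Over the 37 detected members, protein-coding transcripts held on average less than 80% of TPM in 10 (27.0%), and the share among 13429 detected protein-coding genes was 22.1%. The 10 were Cdk4, Cdk1, E2f7, Rbl1, Rb1, Ccnd1, Rbl2, E2f3, Mdm2 and Cdc25b. Of expected counts the coding share was larger in each, from 50.6% in Cdk4 to 99.2% in E2f3 in replicate 1. By counts it was below 80% only in Cdk4, Cdk1, E2f7 and Rbl1, in both libraries. The leading transcript was protein coding in 35 of 37. In Ccnd1, the coding Ccnd1-201 held 70.3% ± 0.467 of TPM and the retained-intron Ccnd1-202 the rest, yet Ccnd1-201 took 95.9% of the expected counts in replicate 1. Among 73 transcripts with at least 10% of their gene, 13 had bounds apart between libraries, all higher in replicate 2, and 60 overlapped. The share over all transcripts was not computed, so this count has no reference of its own kind. Gene-level bounds leaned the same way, apart and higher in 16.1% of all genes tested and apart and lower in 6.5%. In Cdk2, the transcript Cdk2-201 was at 7.33 and 11.23 TPM with bounds apart, and Cdk2-202, which carries a longer coding sequence of 1038 against 894 bases, was at 5.52 and 4.86 TPM with bounds that overlapped.

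**Figure D3:**
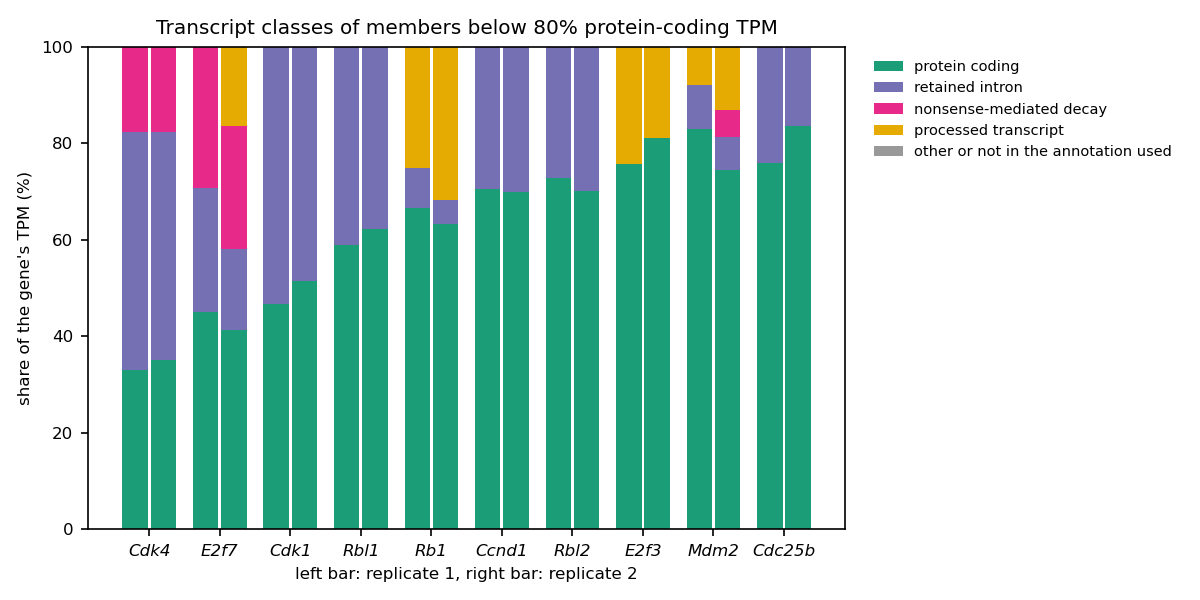
Share of a gene's TPM, in percent, held by each class of annotated transcript in the 10 detected members below 80% protein-coding TPM on average, with replicate 1 as the left bar and replicate 2 as the right. Cdk4 has the smallest protein-coding share, 33.0% and 35.0%, and Mdm2, E2f3 and Cdc25b exceed 80% in 1 library.

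The Cip/Kip inhibitors, which bind cyclin and Cdk pairs, summed to 255.0 TPM in replicate 1 and 308.5 TPM in replicate 2. Cdkn1c, an imprinted inhibitor linked to cell cycle exit, was at 167.11 and 201.27 TPM (log2 count ratio 0.19, exact binomial test, adjusted p = 2.0e-13). Cdkn1a, a direct target of p53, was at 72.87 and 92.34 TPM (0.27, exact binomial test, adjusted p = 1.5e-06). Both had bounds apart. Cdkn1b was the lowest of the 3, at 15.02 and 14.92 TPM, and was not called (adjusted p = 0.455). Cdkn1c exceeded Cdkn1a by 2.24 ± 0.0803 times and Cdkn1a exceeded Cdkn1b by 5.52 ± 0.946 times. Within Cdkn1a, the transcripts Cdkn1a-201 (18.5 and 24.4 TPM) and Cdkn1a-202 (46.0 and 65.8 TPM) were both higher with bounds apart, and Cdkn1a-203 was at 8.40 and 2.24 TPM with bounds that overlapped.

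Of the INK4 inhibitors, which bind Cdk4 and Cdk6 directly, nearly all signal was Cdkn2d. It was at 90.84 and 96.28 TPM and was not called with this scaling (adjusted p = 0.900), but was called higher with the spike-in total. It exceeded Cdkn2c by 36.4 ± 6.19 times, the latter standing at 2.23 and 3.01 TPM from 74 and 103 counts. The call of Cdkn2c was close to the threshold (log2 count ratio 0.53, interval 0.09 to 0.98, exact binomial test, adjusted p = 0.0471) and its bounds overlapped. Cdkn2b was at 1.01 and 1.11 TPM from 28 counts in each library. Cdkn2a was listed at 0.06 and 0 TPM, from 1 expected count and 0. A count of 0 allows up to 0.0924 CPM, counts scaled to the gene total, in replicate 2. Its transcript Cdkn2a-202, which starts at the distal promoter and encodes Arf, held that count, and Cdkn2a-201, from the proximal start and encoding Ink4a, was listed at 0 in both libraries.

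The pocket proteins restrain E2F factors. Rb1 (22.79 and 25.56 TPM) and Rbl2 (21.56 and 27.07 TPM) were at like levels, with a Rbl2 to Rb1 ratio of 0.946 in replicate 1 and 1.06 in replicate 2, whose direction thus differed between libraries. Rbl2 was called higher (log2 count ratio 0.21, exact binomial test, adjusted p = 1.5e-04), and Rb1 was not with this scaling (0.02, adjusted p = 0.831). With the spike-in total, Rb1 was called higher as well. Rbl1, the relative whose transcription follows the cycle, was at 4.46 and 4.92 TPM and was not called (adjusted p = 0.572). Rb1 exceeded it by 5.15 ± 0.0603 times.

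The E2F family was weighted towards its repressors. E2f4, E2f5 and E2f6, which act with pocket proteins or Polycomb factors, were at 32.10 and 36.85, 24.80 and 27.08, and 22.14 and 24.70 TPM. The activators E2f1 (1.76 and 1.96 TPM), E2f2 (1.03 and 0.96 TPM) and E2f3 (5.33 and 5.02 TPM), which drive S-phase genes, were far lower. Summed, the repressors exceeded the activators by 10.4 ± 1.01 times, and by 12.1 ± 0.771 times over protein-coding transcripts. The atypical repressors E2f7 and E2f8, which bind without a partner and close the S-phase program, were at 5.66 and 6.93 TPM and at 1.91 and 2.23 TPM. Protein-coding transcripts of E2f7 held 2.55 and 2.86 TPM. No E2F gene was called in the binomial test with this scaling. E2f4 came closest (log2 count ratio 0.13, exact binomial test, adjusted p = 0.0693), and its credibility bounds stood apart. It was called higher with TMM factors, DESeq2 size factors and the spike-in total, and E2f5 and E2f6 with the spike-in total only.

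The Cdc25 phosphatases switch Cdks on, and Wee1 switches Cdk1 off. Cdc25b led at 21.30 and 22.33 TPM, 2.50 ± 0.137 times Cdc25a (8.20 and 9.29 TPM), and Cdc25a in turn was 1.62 ± 0.0111 times Cdc25c (5.08 and 5.70 TPM). Over protein-coding transcripts, Cdc25b was 1.99 ± 0.0257 times Cdc25a. None of the 3 was called with this scaling, and Cdc25a and Cdc25b were called higher with the spike-in total. Wee1 was at 4.14 and 5.61 TPM with bounds apart, and its call was near the threshold (log2 count ratio 0.37, exact binomial test, adjusted p = 0.0472).

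Trp53 exceeded its ubiquitin ligase Mdm2 by 1.17 ± 0.0211 times, with credibility bounds of the 2 genes apart in both libraries, and by 1.44 ± 0.124 times over protein-coding transcripts. Trp53 was at 44.06 and 45.03 TPM and was not called (adjusted p = 0.644). Mdm2 was at 38.04 and 37.90 TPM. Its counts of 2140 and 1868 were nevertheless called lower (log2 count ratio -0.14, exact binomial test, adjusted p = 0.00899), with bounds that overlapped, and this call was lost with TMM factors and with the spike-in total. Within Mdm2, protein-coding transcripts held 83.0% of TPM in replicate 1 and 74.5% in replicate 2.

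The 3 Myc genes, transcription factors of growth that pair with Max, were of similar level. Mycl was at 54.08 and 57.97 TPM and was not called with this scaling (adjusted p = 0.0872). Mycn was at 39.72 and 51.40 TPM, called higher with bounds apart (log2 count ratio 0.29, exact binomial test, adjusted p = 1.3e-10). Myc was at 43.08 and 44.29 TPM and was not called (adjusted p = 0.465). The Mycn to Myc ratio was 0.922 in replicate 1 and 1.16 in replicate 2, so which of them was higher depended on the library. Mycn-201 led Mycn at 28.6 and 33.3 TPM, and Mycn-202 stood at 10.2 and 17.0 TPM. For Myc, the transcripts Myc-201 and Myc-205 have the same ends and were listed with identical TPM, 8.92 and 7.97 each, and wide bounds, so reads were not told apart between them.

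Genes that neighbour this network were counted from lists given by symbol, to be read beside the 15.7% of all genes tested that were higher and the 18.7% that were lower. Of 15 genes of G2 and M phase that are not themselves members, 12 were higher in replicate 2 and none lower (median log2 TPM ratio 0.33). The most abundant were Top2a, the topoisomerase that untangles sister chromatids, at 26.8 and 34.1 TPM and called higher, and Birc5, the survivin of the chromosomal passenger complex, at 28.0 and 29.3 TPM and not called. Of 15 S-phase targets of E2F, 8 were higher and none lower (median 0.24), with the replication clamp Pcna at 87.4 and 96.6 TPM (not called) and the helicase subunit Mcm7 at 56.2 and 62.8 TPM (higher). These medians compare with 0.13 for the 39 members and 0.05 for all genes.

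The remaining lists were closer to the 15.7% of all genes called higher, with 18.8% to 30.8% of their tested genes higher. Their share called lower ranged from 0% to 33.3%, beside 18.7% of all genes. Among 9 genes of the DREAM and MMB complexes, of which DREAM holds pocket proteins and E2F at cell cycle promoters, 2 were higher and none lower (median 0.13). Rbbp4 was at 195.8 and 207.9 TPM and Tfdp1, the partner of E2F factors, at 83.3 and 88.4 TPM, neither called. Of 13 ubiquitin ligase genes and inhibitors, 4 were higher and 1 lower (median 0.10), with Skp1a (835.3 and 854.4 TPM) called lower in counts and Cul1 (96.1 and 110.5 TPM) higher. Other cyclins, Cdks and partners had 3 higher and 1 lower of 16 tested (median 0.04). Ccnh, of the Cdk-activating kinase, was at 75.9 and 79.4 TPM and higher, and Cks1b, a Cdk subunit, was at 78.4 and 75.9 TPM and not called. Of 9 checkpoint and mitotic entry kinases, 2 were higher and 3 lower (median 0.10), with Aurka at 14.9 and 16.1 TPM (not called) and Plk1 at 11.3 and 14.0 TPM (higher).

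Targets of p53 other than Cdkn1a and Mdm2 numbered 14, with 3 higher and 1 lower (median 0.09), where 15.7% of all genes tested were higher and 18.7% lower. Bax, an apoptosis effector, was at 132.9 and 139.2 TPM and not called, and Ei24 was at 58.5 and 73.0 TPM and higher. The 10 genes of the Myc and Max network had 2 higher and 3 lower (median 0.06). Max itself was at 32.7 and 38.0 TPM and higher, and Mlx was at 66.5 and 66.0 TPM and not called. Of 9 growth genes known as Myc targets, besides Cdk4, 2 were higher and 3 lower (median 0.10), with Ldha at 429.9 and 509.6 TPM (higher) and Npm1 at 352.9 and 335.9 TPM (lower).

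**Figure D4:**
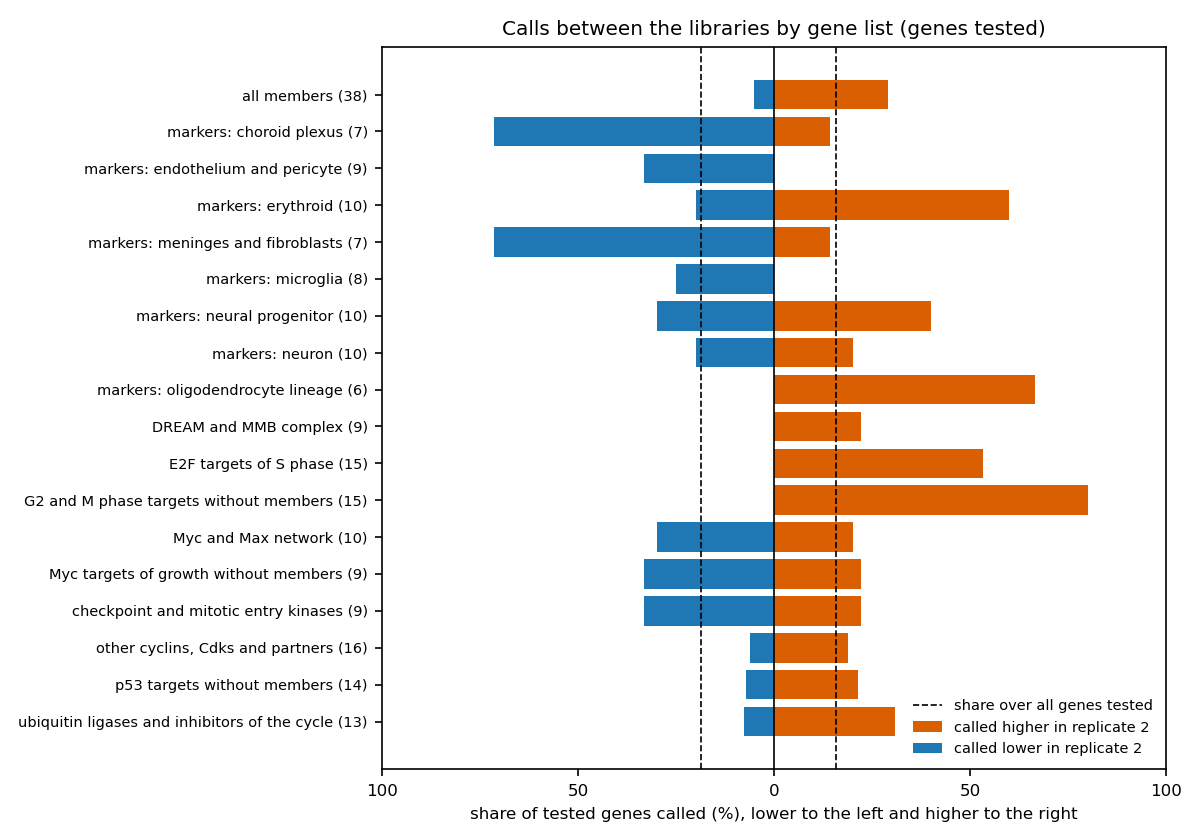
Share of tested genes called lower (left) and higher (right) in replicate 2, in percent, for the regulators, the marker lists and the neighbouring gene lists, with the number tested in parentheses and dashed lines at the shares over all genes, 18.7% and 15.7%. The G2 and M phase genes reach furthest to the right (12 of 15), and the choroid plexus and meningeal markers furthest to the left (5 of 7 each).

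Markers of cell types also differed between the libraries, where 15.7% of all genes tested were higher and 18.7% lower. Choroid plexus markers summed to 1930 TPM in replicate 1 and 1168 TPM in replicate 2, with 1 of 7 higher (Kl) and 5 lower, led by the thyroxine carrier Ttr at 1825 and 1094 TPM and the folate receptor Folr1 at 54.6 and 34.3 TPM. Markers of meninges and fibroblasts summed to 754.7 and 632.3 TPM, with 1 of 7 higher (Pdgfra, also a marker of the oligodendrocyte lineage) and 5 lower, among them the collagens Col3a1 (307.9 and 260.1 TPM) and Col1a2 (157.9 and 131.7 TPM). Erythroid markers summed to 12435 and 14211 TPM, with 6 of 10 higher and 2 lower, and the adult globin genes Hba-a2 (5337 and 6300 TPM) and Hbb-bs (2531 and 3209 TPM) were higher, their split from near-identical globin copies being uncertain. The 2 lower, named after their values were seen, were the embryonic globin genes Hbb-y (534.4 and 136.9 TPM, log2 count ratio -2.04) and Hba-x (75.5 and 30.7 TPM, log2 count ratio -1.37). Those of the oligodendrocyte lineage summed to 114.3 and 144.1 TPM, with 4 of 6 higher, including Olig1 (73.8 and 95.8 TPM) and Pdgfra (17.5 and 20.1 TPM). Neural progenitor markers summed to 2630 and 2663 TPM, with 4 of 10 higher and 3 lower, and TPM was higher in replicate 2 for 8. Their most abundant genes, Fabp7 (1847 and 1806 TPM) and Vim (362.8 and 369.8 TPM), were called lower in counts, by log2 ratios of -0.11 and -0.07. Msi1 was the other one lower (-0.12). The 4 higher were Hes5 (log2 count ratio 0.52), Ptprz1 (0.32), Slc1a3 (0.15) and Sox9 (0.11). Neuron markers summed to 4805 and 5185 TPM (2 of 10 higher, 2 lower), with the tubulin gene Tubb3 at 1354 and 1427 TPM (not called) and the growth cone gene Gap43 at 1160 and 1366 TPM (higher). Endothelial and microglial lists had none higher and 3 of 9 and 2 of 8 lower, with sums of 210.2 and 207.1 TPM and of 151.0 and 146.2 TPM. Cldn5 (96.3 and 93.0 TPM) and Kdr (22.7 and 20.8 TPM) of the vessels were lower, and the complement genes C1qb (38.4 and 42.2 TPM) and C1qa (26.4 and 24.2 TPM) of microglia were not called. No marker in these lists was listed at 0, and the lowest was Kl of the choroid plexus at 0.89 and 1.47 TPM, called higher. Spike-in RNA took 8.15% of TPM in replicate 1 and 7.72% in replicate 2. The part of these differences in the calls of the members was not tested.

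Annotated exons of 17 members overlap those of another gene, in all 20 pairs on the opposite strand. The strand setting of the counting is not given in the sources used here, so reads from the overlaps may not be told apart. Cdk4 shares 641 bases with Tspan31 (62.0 and 40.3 TPM), Rbl2 shares 693 with Aktip (100.2 and 120.1 TPM), Ccnd1 shares 1100 with LTO1 (17.2 and 17.5 TPM) and Ccna2 shares 510 with Exosc9 (58.8 and 63.5 TPM). Their part in the values of the members was not tested.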

How the data were processed

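Total RNA of 2 hindbrain libraries, 1 group, was analysed from the gene and transcript tables deposited for each library. Extraction was with mirVana, and spike-ins were added, per the labels' protocols. Per the file descriptions deposited with each library, reads were assigned to mm10 with annotation M4. Aligner, quantifier and strandedness were not given in the sources used here. Expected counts, as deposited by the authors, estimate the reads of a gene or transcript without normalisation and can be fractional. In deposited TPM and FPKM, the authors divided by length and by a total over every feature, including 96 spike-in sequences. The deposited credibility bounds, used as score values, lie around the authors' posterior mean, so a TPM can lie outside them.

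The 39 members and all lists were chosen with earlier results of these data known. Symbols were matched for 42462 of 43346 genes. Names, coordinates and transcript types came from GENCODE M21 (GRCm38, the assembly of mm10), whose gene models can differ from M4. Expected counts were rounded, scaled by the gene total and compared by the exact two-sided binomial test where the mean count reached 10. Log2 TPM ratios used a pseudocount of 1, which understates changes of low genes. A count of 3 was taken as the limit that a count of 0 allows. All members are named, with the 2 most abundant other genes of each list and transcripts holding at least 10% of a gene (Cdkn2a whatever the level). Hoxb2, Gbx2, Hbb-y, Hba-x, Kl, Msi1, Hes5, Ptprz1, Slc1a3 and Sox9 were named outside this rule, after their values were seen. Alternatives were size factors of DESeq2 1.42.0, TMM factors of edgeR 4.0.16, spike-in scaling, other filters, FPKM, the posterior mean, other pseudocounts and each replicate alone. TPM over protein-coding transcripts only was added after the data were seen. A planned comparison of protein sequences was not run. Simulated counts with known changes were used to check the test. They held counting noise only, so the check does not cover spread between libraries beyond counting. Software comprised Python 3.11.15 (pandas 2.3.3, scipy 1.17.1, numpy 2.4.6, and matplotlib 3.10.9 for plots) and R 4.3.3.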

Additional observations from a re-analysis of the deposited data

How the results depend on the processing

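The count of 11 members higher in replicate 2 became 15 with TMM factors and with DESeq2 size factors, which added Ccne1, Cdk1, E2f4 and Mycl, and 23 with the spike-in total. All 11 were kept under these 3 scalings. The count of members higher was 9 with no filter on low counts, without Cdkn2c and Wee1, where 5.41% of all genes were higher. It was 10 with a mean count of at least 100, where 20.2% of all genes were higher. With a minimum of 1.5-fold besides the test, 0 members were higher and 0 lower, beside 1.52% and 4.44% of all genes tested. The count of 2 lower became 0 with TMM factors, 1 with DESeq2 size factors (Mdm2) and 0 with the spike-in total. In the same order, 14.7%, 15.6% and 8.46% of all genes tested were lower. Scaling also moved the calls over all genes: 45.7% of them were higher in replicate 2 with the gene total, 80.6% by spike-ins, 58.5% by TMM and 55.6% by DESeq2. The median log2 ratio of all genes was 0.10 with spike-in scaled values and 0.05 in TPM. With the spike-in total, log2 count ratios turned positive for Ccnb2 (0.0900), Ccnd3 (0.0815), Cdk4 (0.0502), Cdk6 (0.0207), Cdkn1b (0.0511), E2f3 (0.0565), Trp53 (0.0892) and Myc (0.0749), of which Cdk4 was called higher in the exact binomial test (adjusted p = 0.0353). With TMM factors Ccnb2 (0.00131) and Trp53 (0.00047) turned positive. The members' median of 0.13 was 0.0637 with FPKM, where that of all genes was -0.02. Across settings it exceeded that of all genes by 0.08 to 0.11. The cause of these shifts was not tested. The ratio of Rbl2 to Rb1 was 0.983 with the posterior mean and ranged from 0.946 without replicate 2 to 1.06 without replicate 1, and that of Mycn to Myc from 0.922 to 1.16. Over protein-coding transcripts, 11 of the 21 level ratios computed moved by more than their SD over the 2 libraries. No paired analysis was possible because both libraries belong to 1 group.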
